A study of Mus musculus with 6 samples.

Results

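The genes described here encode the core proteins of cell surface and matrix proteoglycans: the syndecans Sdc1, Sdc2, Sdc3 and Sdc4, the glypicans Gpc1, Gpc4 and Gpc6, the chondroitin sulfate proteoglycan Cspg4 and the small matrix proteoglycan Bgn. They were taken by gene symbol from a table of 14515 genes, and 9 of the 10 symbols looked up were used. The tenth, Dcn, is not among those genes and was not analysed here. The genes were chosen by family, with the fold changes of mdx/Ripk3mKO against mdx and of mdx against wt in these libraries in view and those of Sdc3 and Cspg4 already known, so what follows for them is a description. Adjusted p-values come from the fit over all genes and are printed for the same purpose.

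The study sequenced total RNA from mouse muscle stem cells in 6 libraries, 2 in each of 3 groups. The groups were labelled mdx/Ripk3mKO, mdx and wild type (wt). Mice of the mdx strain lack dystrophin through a mutation of its gene and serve to model Duchenne muscular dystrophy. The mdx/Ripk3mKO and mdx groups share that mutation, and mdx/Ripk3mKO adds the change written Ripk3mKO. What mKO stands for is not written out, and the sources used here give neither the age nor the promoter behind the change. The sources also differ on the cells. Per the sample labels they were quiescent satellite cells taken straight from sorting. Per the series text they were wt cells, activated and kept for 72 hours beneath a transwell insert holding cells of one of the 3 genotypes, in which case the genotype is that of the neighbouring cells. Nothing says whether 2 libraries of a group stand for 2 animals or 2 cultures. The p-values therefore measure only how far these libraries spread, and that spread may be technical.

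A proteoglycan is a core protein that carries long sulfated sugar chains. Syndecans span the membrane and glypicans are held to it by a lipid anchor; their heparan sulfate chains bind growth factors such as FGF and HGF and present them to their receptors. Syndecan-3 and syndecan-4 are known on mouse satellite cells, and syndecan-3 is linked to the control of their cell cycle and of Notch signalling. Cspg4, also called NG2, is best known from pericytes and from precursors of oligodendrocytes. Biglycan is a small leucine-rich proteoglycan of the matrix that binds collagen and TGF-beta and, in muscle, the dystrophin complex.

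Values are scaled counts: reads per gene, scaled between libraries by the authors and rounded. Library totals lay between 20611974 and 21037153. The divisors behind the scaling, estimated from whole numbers that the rounding skipped or doubled, gave estimates of 25328732 and 25025783 counts before scaling in the mdx/Ripk3mKO libraries and of 17994044 to 19663823 in the other 4, so depth and group cannot be told apart there. Library 1 of mdx/Ripk3mKO stood apart in sex-linked transcripts, with 6918 scaled counts of Xist against 164 to 666 in the other 5 libraries, and its 4 measured Y-linked genes summed to 1130 against 4473 to 4970. Ripk3 itself was low and did not set the groups apart, with 17 and 33 scaled counts in mdx/Ripk3mKO, 23 and 36 in mdx, and 45 and 32 in wt; Dmd, the dystrophin gene, had 474 and 294, 531 and 692, and 324 and 432 in the same order. These transcripts therefore do not check the labels. All libraries held Pax7 (84.6 to 103 CPM, its scaled count per 1000000 of the library) and much Myog (1300 to 1698 CPM), a marker of differentiating muscle cells. Cd34, a surface marker of resting satellite cells, was at 0.0951 to 0.582 CPM, which for this gene alone goes against the label of quiescent cells. Vcam1, another satellite cell marker, was at 103 to 118 CPM. Of 9 satellite cell markers 8 were measured, all but Calcr, at a summed 4952 to 5628 CPM. Myod1 was at 1079 and 1137 CPM in mdx/Ripk3mKO, 926 and 904 in mdx, and 1118 and 1021 in wt. Itga7 was also lowest in both mdx libraries, at 701 and 696 CPM against 702 to 756 in the others. Pax7, Myf5, Vcam1, Cd34, Myog and Des were not. The part of this in the values of Sdc3 and Cspg4 was not tested. In bulk RNA, fewer cells of a type and less RNA per cell cannot be told apart.

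Among the 9 genes, glypican-1 had the most abundant transcript for its length. Levels between genes are compared as scaled counts per kb of merged annotated exons. On that scale Gpc1 averaged 1871 over the 6 libraries, Sdc3 964, Sdc4 875, Sdc2 751, Sdc1 459, Bgn 316, Gpc4 199, Cspg4 131 and Gpc6 121. Neighbours in this order did not overlap in range, except Sdc3 (799 to 1104) with Sdc4 (860 to 902) and Cspg4 (99.3 to 149) with Gpc6 (118 to 127). With the longest protein-coding transcript as the length, a choice made after seeing the data, Bgn came to 797 and moved up to the fourth place, and Gpc6 at 223, Gpc4 at 199 and Cspg4 at 192 took the last 3 places. The first 3 places were the same with both lengths.

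Sdc3 (ENSMUSG00000025743, mm10 chromosome 4, 130792537 to 130826319, plus strand) encodes syndecan-3. It had 5997 and 6609 scaled counts in the mdx/Ripk3mKO libraries, 4787 and 5073 in the mdx libraries, and 6054 and 6109 in the wt libraries. Both mdx libraries lay below the 4 others, which overlapped among themselves. The log2 fold change between mdx/Ripk3mKO and mdx was 0.35 ± 0.06 (moderated SE, n = 2 and 2), or 1.28-fold, with an adjusted p of 0.0289 by limma. Between mdx and wt it was -0.30 ± 0.06 (adjusted p = 0.197), which did not pass the threshold of 0.05. For mdx/Ripk3mKO and wt it was 0.05 ± 0.06, with a 95% interval from -0.07 to 0.17. The first comparison and the second share the mdx libraries, so a low value in those libraries enters both.

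Cspg4 (ENSMUSG00000032911, chromosome 9, 56865033 to 56899870, plus strand) had 1735 and 1706 scaled counts in mdx/Ripk3mKO, 1354 and 1185 in mdx, and 1773 and 1602 in wt. The mdx libraries were again the lowest of the 6, and the other 2 groups overlapped. Between mdx/Ripk3mKO and mdx the log2 fold change was 0.44 ± 0.07, or 1.36-fold (limma, adjusted p = 0.0289, n = 2 and 2). Between mdx and wt it was -0.41 ± 0.07 (adjusted p = 0.19). Between mdx/Ripk3mKO and wt it was 0.03 ± 0.07 (95% interval -0.13 to 0.19).

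**Figure D1:**
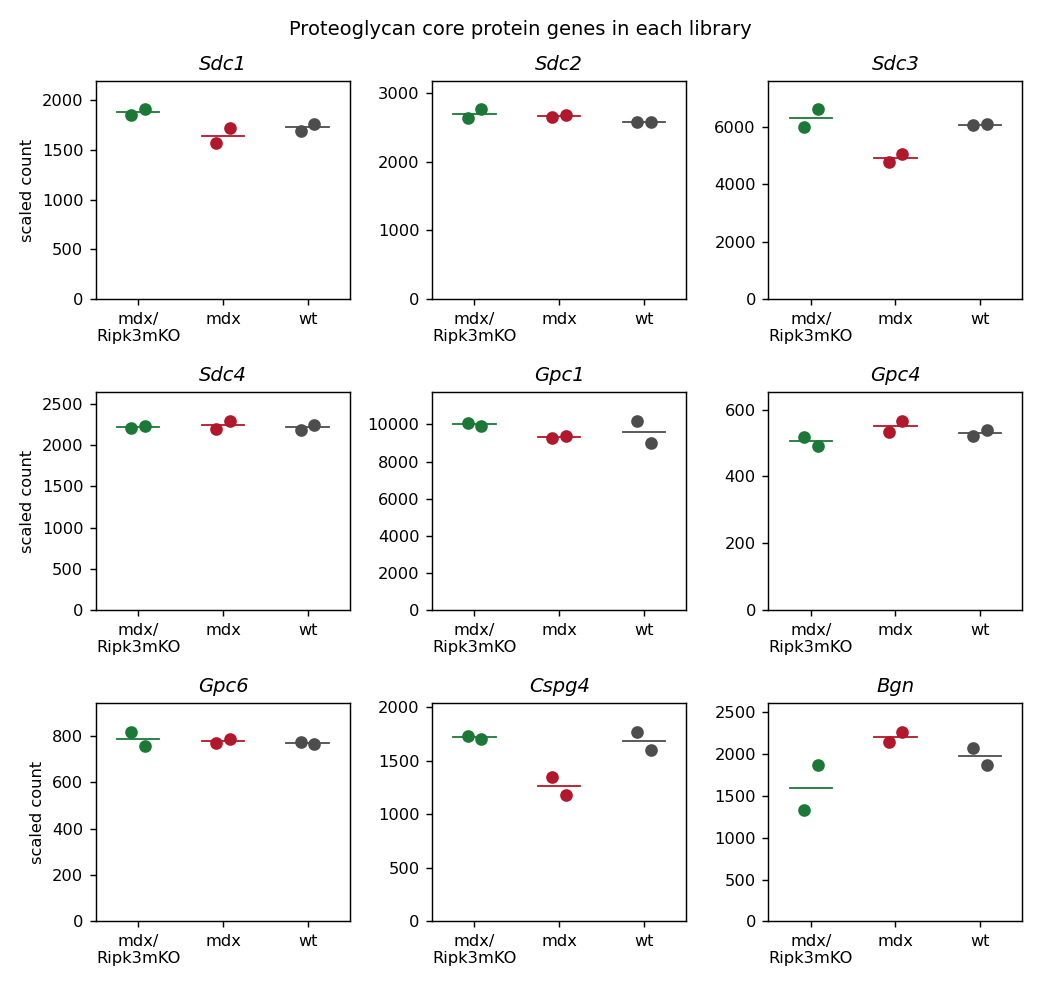
Scaled counts of the 9 core protein genes in each library (points), with the mean of the 2 libraries of each group (line); every axis starts at 0. In the mdx group Sdc3 lies at 4787 and 5073 and Cspg4 at 1354 and 1185, below all other libraries, and Bgn is lowest at 1328 in mdx/Ripk3mKO library 1.

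These 2 genes were the members past the threshold between mdx/Ripk3mKO and mdx, 2 of 9 and both higher, where 0.206% of the 14077 genes tested passed in either direction and 0.0852% as higher. The list was put together with that result known, so nothing is read from the share. Between mdx and wt 0 of 9 passed by limma, with 0.00710% of all genes passing and 2 members, Sdc3 and Cspg4, at an unadjusted p under 0.05. Between mdx/Ripk3mKO and wt 0 of 9 passed, as did 0% of all genes, and 0 members had an unadjusted p under 0.05.

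Both calls between mdx/Ripk3mKO and mdx depended on single libraries and on the model. Without mdx/Ripk3mKO library 2, Sdc3 was at 0.28 (adjusted p = 0.119) and Cspg4 at 0.45 (adjusted p = 0.0814). Without mdx library 2 they were at 0.40 (0.0876) and 0.35 (0.226). Without mdx library 1 Sdc3 was at 0.31 (0.144), while Cspg4, at 0.54, was still called (0.0307). Without wt library 1 or 2, which enter only through the shared spread, the adjusted p of Sdc3 was 0.183 and 0.185 and that of Cspg4 0.143 in both cases. Without mdx/Ripk3mKO library 1 both passed, at 0.42 (0.00206) and 0.43 (0.0282). The sign was the same in all 15 alternatives for each gene.

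**Figure D2:**
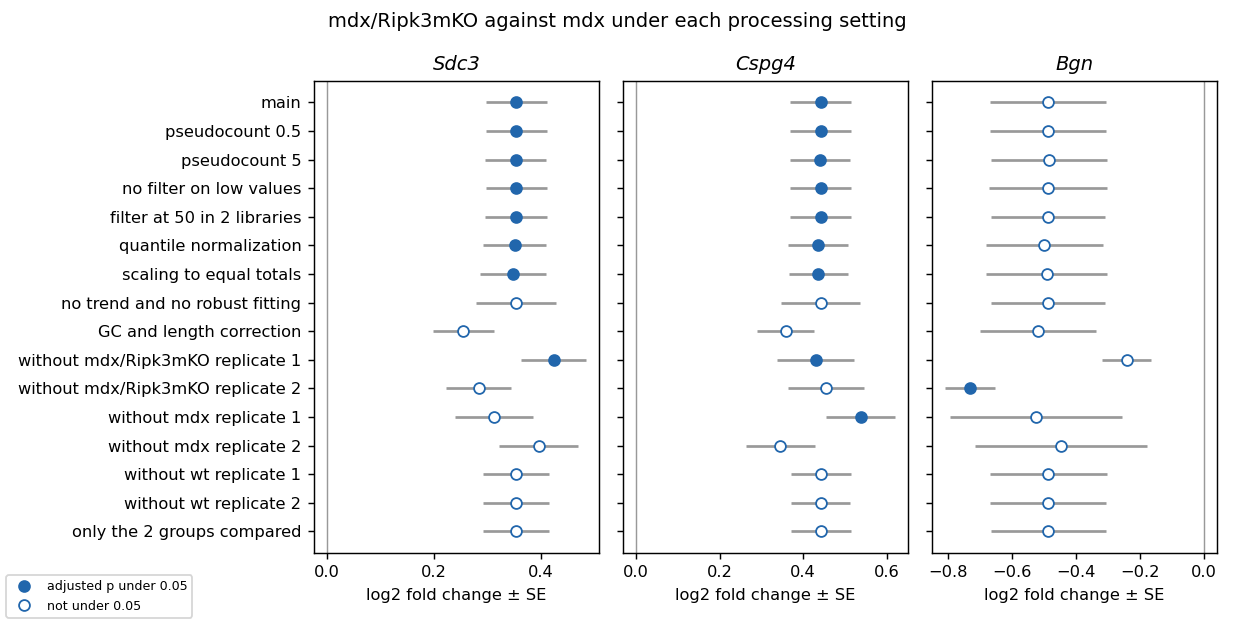
Log2 fold change between mdx/Ripk3mKO and mdx (points, with the moderated SE as bars) for Sdc3, Cspg4 and Bgn under each processing setting; filled points have an adjusted p under 0.05. Sdc3 stays between 0.25 and 0.42 and Cspg4 between 0.35 and 0.54, while Bgn runs from -0.73 to -0.24.

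Base composition was looked up beside these values. The longest annotated transcripts of Cspg4, Gpc1 and Sdc3 have a GC content of 59.2%, 59.1% and 58.7%, above 94.5%, 94.2% and 93.3% of the genes tested. The 947 tested genes at least as GC-rich as Sdc3 had a median log2 fold change of 0.11 between mdx/Ripk3mKO and mdx. In those genes it was -0.06 between mdx and wt and 0.05 between mdx/Ripk3mKO and wt. The medians of all tested genes were -0.0021, -0.0022 and 0.0012 in the same order. After a correction for GC content and exon length, Sdc3 was at 0.25 ± 0.06 (limma, adjusted p = 0.121) and Cspg4 at 0.36 ± 0.07 (adjusted p = 0.0705) between mdx/Ripk3mKO and mdx. Between mdx and wt the corrected values were -0.25 ± 0.06 and -0.37 ± 0.07. Gpc1, about as GC-rich, was at -0.00 ± 0.05 between mdx/Ripk3mKO and mdx after the correction and at 0.10 ± 0.06 before it. The correction takes out GC content and exon length together. The part of either in the values of Sdc3 and Cspg4 was not tested.

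The stretches upstream of the Sdc3 and Cspg4 transcription starts are shown because these 2 genes were the lowest in the same 2 libraries. Sequences are from RefSeq on GRCm38.p6, the assembly also called mm10, plus strand, 5′ to 3′, ended before the first annotated start of either RefSeq or GENCODE M21. Sdc3 is read over chr4:130792287-130792536 and Cspg4 over chr9:56864854-56865032. Capitals mark the GC box, GGGCGG on the plus strand or CCGCCC for its reverse complement.
Sdc3: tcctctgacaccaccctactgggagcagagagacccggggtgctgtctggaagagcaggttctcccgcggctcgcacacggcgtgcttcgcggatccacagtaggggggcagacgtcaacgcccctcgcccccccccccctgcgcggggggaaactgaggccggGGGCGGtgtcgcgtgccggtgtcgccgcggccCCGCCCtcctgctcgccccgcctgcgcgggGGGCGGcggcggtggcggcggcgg
Cspg4: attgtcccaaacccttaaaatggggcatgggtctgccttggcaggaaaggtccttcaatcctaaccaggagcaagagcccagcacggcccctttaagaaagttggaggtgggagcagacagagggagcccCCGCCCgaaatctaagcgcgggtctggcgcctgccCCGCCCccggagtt
The Sdc3 stretch holds 3 GC boxes and the Cspg4 stretch 2, with no overlap between matches. Over the same positions, 32.7% and 20.9% of all 32851 promoters in that collection hold at least 1. The E-box CANNTG, the sequence bound by Myod1 and Myog and the same on both strands, has 0 matches in either stretch, and 66.2% and 55.3% of all promoters hold it over those positions. The Sdc3 stretch is 76.4% G and C, against a median of 52.4% for 250 bases upstream. Of the 9 genes, 6 had a promoter entry and 4 of those a stretch upstream of every annotated start. The other two, Sdc1 and Bgn, hold 2 and 3 GC boxes, and Bgn also holds 1 E-box. These are matches of letters and not sites of binding.

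The 3 other syndecans differed less among the groups. Sdc1 (ENSMUSG00000020592, chromosome 12, 8771323 to 8793715), the syndecan best known from epithelia and plasma cells, had 1848 and 1907 scaled counts in mdx/Ripk3mKO, 1565 and 1720 in mdx, and 1695 and 1760 in wt. The mdx/Ripk3mKO libraries were the highest, and the mdx and wt libraries overlapped. Its log2 fold change between mdx/Ripk3mKO and mdx was 0.19 ± 0.06 (limma, adjusted p = 0.246). Against wt it was 0.12 ± 0.06 (adjusted p = 1). Sdc2 (ENSMUSG00000022261, chromosome 15, 32920723 to 33034730), a syndecan of mesenchymal cells, had 2634 and 2761 in mdx/Ripk3mKO, 2656 and 2680 in mdx, and 2583 and 2580 in wt. All 6 values lay within 1.07-fold of each other. Sdc4 (ENSMUSG00000017009, chromosome 2, 164424247 to 164443186, minus strand), which works with integrins in focal adhesions, had 2205 and 2234 in mdx/Ripk3mKO, 2197 and 2298 in mdx, and 2190 and 2242 in wt. It was the steadiest of the 9, with a coefficient of variation of 1.80% over the 6 libraries, where the median of the 6577 tested genes with a mean of at least 500 was 4.54%. The interval of its log2 fold change between mdx/Ripk3mKO and mdx ran from -0.14 to 0.10, and that between mdx and wt from -0.10 to 0.14.

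The syndecan mix is a further way to show these values. Of the summed scaled counts per kb of the 4 syndecans, Sdc3 made up 32.3% and 33.8% in mdx/Ripk3mKO, 28.3% and 28.6% in mdx, and 33.2% and 33.0% in wt. Sdc4 made up 27.9% and 26.9% in mdx/Ripk3mKO, 30.5% and 30.5% in mdx, and 28.2% and 28.5% in wt. Per kb of merged exons, Sdc4 stood above Sdc3 in both mdx libraries and below it in the other 4. With the longest coding transcript as the length Sdc3 stood above Sdc4 in all 6, at 963 and 1020 against 894 and 935 in the mdx libraries. These shares follow from the member values above and are no further evidence for them.

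**Figure D3:**
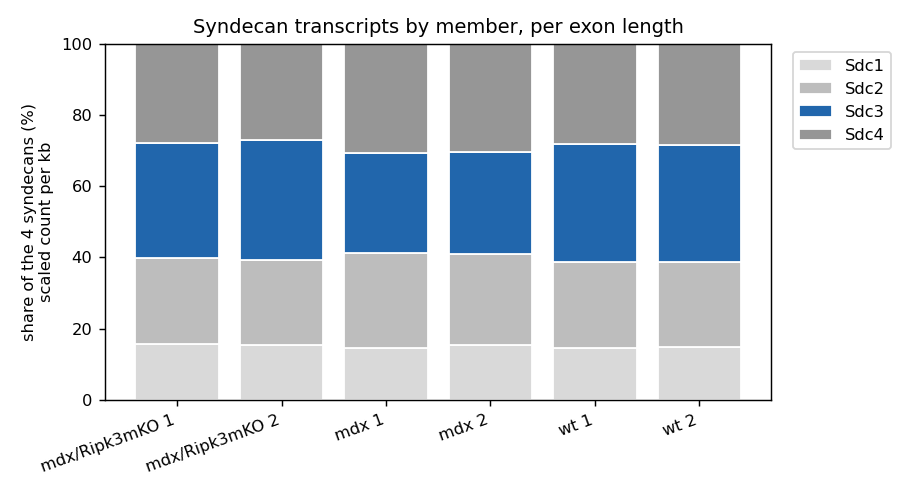
Share of each syndecan in the summed scaled counts per kb of merged exons (stacked bars, in percent) in each library. The Sdc3 band is 28.3% and 28.6% in the mdx libraries and 32.3% to 33.8% in the others.

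The glypicans stayed close together. Gpc1 (ENSMUSG00000034220, chromosome 1, 92831645 to 92860779, plus strand), a co-receptor for FGF2, had 10097 and 9937 scaled counts in mdx/Ripk3mKO, 9291 and 9372 in mdx, and 10201 and 9009 in wt. The wt libraries spanned the values of both other groups. Its log2 fold change was 0.10 ± 0.06 (95% interval -0.02 to 0.22) between mdx/Ripk3mKO and mdx. Gpc4, a glypican of neural and other progenitors (ENSMUSG00000031119, chromosome X, 52053021 to 52165252, minus strand) had 519 and 491 in mdx/Ripk3mKO, 533 and 567 in mdx, and 522 and 538 in wt. The mdx/Ripk3mKO libraries were the lowest, with a log2 fold change against mdx of -0.12 ± 0.08 (limma, adjusted p = 0.593). Gpc6, a further glypican (ENSMUSG00000058571, chromosome 14, 116925297 to 117979529, plus strand) had 818 and 758 in mdx/Ripk3mKO, 769 and 788 in mdx, and 774 and 764 in wt, and all groups overlapped.

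Bgn (ENSMUSG00000031375, chromosome X, 73483602 to 73495933, plus strand) was the most variable of the 9, with a coefficient of variation of 17.3% over the 6 libraries. It had 1328 and 1865 scaled counts in mdx/Ripk3mKO, 2148 and 2268 in mdx, and 2079 and 1875 in wt. Library 1 of mdx/Ripk3mKO lay far below the rest, and library 2 lay 10 counts below the lower wt library. The log2 fold change between mdx/Ripk3mKO and mdx was -0.49 ± 0.18 (limma, adjusted p = 0.432), and between mdx and wt 0.16 ± 0.18 (adjusted p = 0.929). Without mdx/Ripk3mKO library 1 the first was -0.24 ± 0.08 (adjusted p = 0.183). With that library alone standing for its group it was -0.73 ± 0.08 (adjusted p = 0.00117). Library 1 is also the one that stood apart in Xist, and Bgn is X-linked, as is Gpc4, which was at 519 in it. The part of this in the value was not tested.

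**Figure D4:**
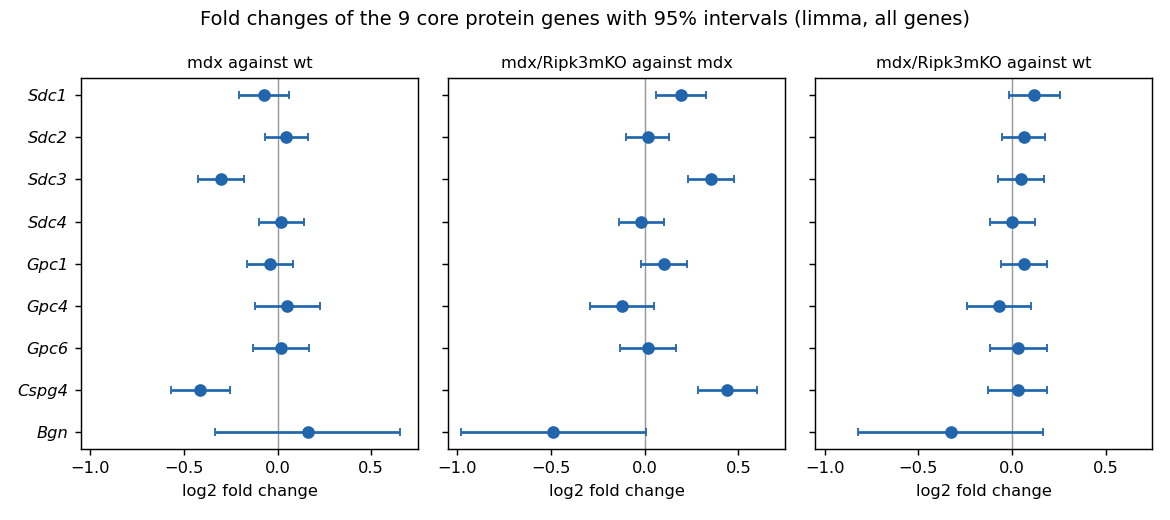
Log2 fold changes of the 9 genes in the 3 comparisons (points) with 95% intervals from limma (bars). Intervals lie off 0 for Sdc3 and Cspg4 between mdx and wt and, together with Sdc1, between mdx/Ripk3mKO and mdx; the widest interval, that of Bgn, runs from -0.98 to 0.005 between mdx/Ripk3mKO and mdx.

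Without regard to size, 4 members (Sdc1, Sdc3, Gpc1 and Cspg4) were higher in both mdx/Ripk3mKO libraries than in both mdx libraries and 2 (Gpc4 and Bgn) lower, where 21.0% and 20.3% of all tested genes were, or 41.3% in either direction. Between mdx and wt 2 members (Sdc2 and Bgn) were higher without overlap and 2 (Sdc3 and Cspg4) lower, beside 17.6% and 18.3% of all genes, or 35.9% together. Between mdx/Ripk3mKO and wt 2 (Sdc1 and Sdc2) were higher and 2 (Gpc4 and Bgn) lower, beside 14.4% and 15.1%, or 29.4% together. The median log2 fold change of the 9 was 0.02, 0.02 and 0.03 in mdx/Ripk3mKO against mdx, mdx against wt and mdx/Ripk3mKO against wt.

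Markers of other cells that can express these genes were looked up in each library. Of 10 markers of pericytes and smooth muscle 7 were measured, at a summed 3884 to 4301 CPM in mdx/Ripk3mKO, 3652 to 4384 in mdx and 3669 to 4185 in wt, nearly all of it Acta2 and Des, which muscle precursors also express. The pericyte marker Rgs5 was at 0.819 to 0.951 CPM in mdx/Ripk3mKO, 1.05 to 1.31 in mdx and 0.530 to 0.870 in wt, while Pdgfrb was at 11.95 to 15.7, 19.5 to 21.5 and 14.9 to 16.0 CPM in the same order of groups. Abcc9 was at 29.6 to 44.1, 48.0 to 49.97 and 33.6 to 39.6 CPM. These 3 were higher in both mdx libraries than in the other 4 libraries. Notch3, Mcam, Acta2 and Des were not, each with at least 1 mdx library below another. Of 10 fibroblast markers 7 were measured, at a summed 195 to 264 CPM in mdx/Ripk3mKO, 201 to 213 in mdx and 200 to 201 in wt, most of it Gsn; Pdgfra was at 1.16 to 1.55 CPM in all libraries. Col1a1, a member of that list, was at 13.6 CPM in mdx/Ripk3mKO library 1 and at 1.01 to 4.66 in the other 5, while Bgn was lowest in library 1. Endothelial markers (4 of 8 measured) summed to 1.54 to 2.38 CPM, macrophage markers (2 of 8) to 1.48 to 2.47, and Schwann and glial markers (3 of 8) to 190 to 217, nearly all Erbb3. Mature myofibre markers (8 of 8) summed to 3240 to 4372 CPM in mdx/Ripk3mKO, 4673 to 4811 in mdx and 3689 to 3763 in wt. Their sum was thus highest in the mdx libraries. Ckm, Myh1, Myh4, Mb and Tnnt3 were each higher in both mdx libraries than in the other 4 libraries. Myh2, Actn3 and Mylpf were not, each with at least 1 mdx library below mdx/Ripk3mKO library 1. The part of these marker differences in the values of Sdc3, Cspg4 and Bgn was not tested.

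Correlations were taken over 9678 genes with a mean of at least 5 CPM, leaving out predicted and clone names and ribosomal protein pseudogenes. By Pearson correlation of log2 values over the 6 libraries, the genes most like Sdc3 were Tatdn2, Tiam2, Mettl6, Slc39a6 and Crtap. They were at 0.995, 0.995, 0.995, 0.995 and 0.994. Their log2 fold changes between mdx/Ripk3mKO and mdx were smaller than that of Sdc3, at 0.07, 0.14, 0.07, 0.12 and 0.12. For Cspg4 they were Arhgef16, Sh3bp5l, Hnrnpk, Tmem248 and Cul7, at 0.991, 0.991, 0.990, 0.989 and 0.985, with fold changes of 0.38, 0.13, 0.05, 0.08 and 0.20. A correlation above 0.95 was reached by 75 genes for Sdc3 and by 66 for Cspg4, and that between Sdc3 and Cspg4 themselves was 0.85. With 6 points that share their libraries these are descriptions only.

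The wider machinery was followed through 7 lists of 161 genes, of which 120 were tested: other core proteins, enzymes of the linker and of heparan sulfate, enzymes of chondroitin and dermatan sulfate, supply of sugar and sulfate donors, proteases and other release factors, cytoplasmic partners of syndecans and NG2, and ligands and receptors. By limma 0 of the 120 genes passed the threshold in any of the 3 comparisons. At an unadjusted p under 0.05 there were 25 list genes between mdx/Ripk3mKO and mdx, 12 between mdx and wt and 3 between mdx/Ripk3mKO and wt, beside 11.6%, 6.46% and 3.32% of all tested genes.

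Of 24 tested genes for the linker and heparan sulfate, 14 were higher and 10 lower in mdx/Ripk3mKO than in mdx (median log2 fold change 0.03), and 15 were higher and 9 lower in mdx than in wt (median 0.02). Against wt, 15 were higher and 9 lower in mdx/Ripk3mKO (median 0.03). Without overlap 6 were higher and 1 lower in mdx/Ripk3mKO against mdx, 3 and 3 in mdx against wt, and 8 and 1 in mdx/Ripk3mKO against wt, beside the shares of all genes given above for each comparison. The sulfatase gene Sulf2, which trims sulfate groups off finished chains, had 515 and 435 scaled counts in mdx/Ripk3mKO, 332 and 424 in mdx, and 381 and 352 in wt. Its log2 fold change was 0.33 ± 0.12 against mdx (adjusted p = 0.318 by limma) and 0.37 ± 0.12 against wt (adjusted p = 1). Hs6st1, which adds sulfate to heparan sulfate, was at 0.18 ± 0.07 in mdx/Ripk3mKO against mdx and at -0.15 ± 0.07 in mdx against wt. Pxylp1, the phosphatase that acts on the linker xylose, was at 0.32 ± 0.14 in mdx/Ripk3mKO against mdx.

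In the chondroitin and dermatan sulfate list 7 of 16 tested genes were higher and 9 lower in mdx/Ripk3mKO than in mdx (median -0.01), and 8 and 8 in mdx against wt (median 0.01). Without overlap 6 were higher and 4 lower in mdx/Ripk3mKO against mdx, 3 and 2 in mdx against wt, and 4 and 1 in mdx/Ripk3mKO against wt. The shares of all tested genes were 21.0% higher and 20.3% lower, 17.6% and 18.3%, and 14.4% and 15.1% in the same order. The polymerising factor Chpf had 828 and 848 scaled counts in mdx/Ripk3mKO, 711 and 728 in mdx, and 796 and 748 in wt. The sulfotransferases Chst12 and Chst3 were at 0.38 ± 0.14 and -0.32 ± 0.12 in mdx/Ripk3mKO against mdx. Among the 9 donor genes, Ugp2, which makes UDP-glucose, had 1798 and 1469 in mdx/Ripk3mKO, 1909 and 1884 in mdx, and 1577 and 1694 in wt. It was at -0.22 ± 0.08 in mdx/Ripk3mKO against mdx and at 0.21 ± 0.08 in mdx against wt. Papss2, which makes the sulfate donor, was low, with 10 and 7 in mdx/Ripk3mKO, 14 and 20 in mdx, and 7 and 13 in wt. Its log2 fold change was -0.92 ± 0.45 in mdx/Ripk3mKO against mdx (limma, adjusted p = 0.451). Papss1, also among the donor genes, had 896 and 835, 926 and 913, and 875 and 867 in the same order. It was at -0.09 ± 0.07 in mdx/Ripk3mKO against mdx. Slc35b2, which carries the sulfate donor into the Golgi, was at 0.12 ± 0.07 in that comparison.

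The release list held genes near the threshold between mdx/Ripk3mKO and mdx, in both directions. Furin, the proprotein convertase that activates many matrix enzymes, had 6374 and 6179 scaled counts in mdx/Ripk3mKO, 5384 and 5113 in mdx, and 6249 and 5772 in wt. Its log2 fold change was 0.26 ± 0.06 in mdx/Ripk3mKO against mdx (limma, adjusted p = 0.0796). Adamts4, a protease that cleaves large chondroitin sulfate proteoglycans, had 1565 and 1741 in mdx/Ripk3mKO, 1369 and 1332 in mdx, and 1634 and 1592 in wt. It was at 0.29 ± 0.06 in mdx/Ripk3mKO against mdx (adjusted p = 0.0911). In both genes the mdx libraries were the lowest. Mmp14, a membrane metalloprotease that can shed syndecans, lay the other way, with 686 and 623 in mdx/Ripk3mKO, 825 and 897 in mdx, and 655 and 751 in wt. It was at -0.40 ± 0.09 in mdx/Ripk3mKO against mdx (adjusted p = 0.0814) and at 0.29 ± 0.09 in mdx against wt (adjusted p = 0.495). Of the 15 tested genes of the list 6 were higher and 9 lower in mdx/Ripk3mKO than in mdx (median -0.04).

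Of the 13 tested cytoplasmic partners 12 were higher in mdx/Ripk3mKO than in mdx (median 0.08), 8 of them without overlap, where 49.2% of all tested genes were higher and 21.0% higher without overlap. Lower without overlap were 0 of them, beside 20.3% of all tested genes. In mdx against wt 3 were higher and 10 lower (median -0.015), where 49.0% of all tested genes were higher. Without overlap 0 were higher and 4 lower in mdx against wt, beside 17.6% and 18.3% of all tested genes. In mdx/Ripk3mKO against wt 11 were higher and 2 lower (median 0.03), where 50.5% of all tested genes were higher. Without overlap 3 were higher and 1 lower there, beside 14.4% and 15.1% of all tested genes. The Rac activator Tiam1, which binds syndecans, had 1014 and 1114 scaled counts in mdx/Ripk3mKO, 907 and 873 in mdx, and 1107 and 980 in wt. Src and Pdcd6ip (ALIX), which acts with syndecans and syntenin in the release of exosomes, were at 0.23 ± 0.08 and 0.13 ± 0.05 in mdx/Ripk3mKO against mdx.

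Among 27 tested ligands and receptors 7 were higher and 20 lower in mdx/Ripk3mKO than in mdx (median -0.08). In mdx against wt 18 were higher and 9 lower (median 0.07), and in mdx/Ripk3mKO against wt 12 and 15 (median -0.02). Of all tested genes 49.2%, 49.0% and 50.5% were higher in the same order. Without overlap 3 were higher and 8 lower, 7 and 3, and 2 and 4. The shares of all tested genes were 21.0% and 20.3%, 17.6% and 18.3%, and 14.4% and 15.1%. Tgfb2, a ligand of the TGF-beta family that small proteoglycans bind, had 983 and 1015 scaled counts in mdx/Ripk3mKO, 1395 and 1214 in mdx, and 1206 and 1100 in wt, and none of the groups overlapped. Its log2 fold change was -0.38 ± 0.08 in mdx/Ripk3mKO against mdx (limma, adjusted p = 0.0657). Fgf6, a muscle FGF, had 100 and 51 in mdx/Ripk3mKO, 125 and 128 in mdx, and 100 and 98 in wt. The ligand Bmp4 was low, with 15 and 12 in mdx/Ripk3mKO, 22 and 24 in mdx, and 11 and 8 in wt. Of 16 other core proteins tested 6 were higher and 10 lower in mdx/Ripk3mKO than in mdx (median -0.11). In mdx against wt 8 were higher and 8 lower (median 0.04), and in mdx/Ripk3mKO against wt 8 and 8 (median 0.0035). Without overlap 4 were higher and 3 lower, 3 and 5, and 1 and 3 in the same order. The shares of all tested genes are those given above for the ligands and receptors. Versican (Vcan), a large matrix chondroitin sulfate proteoglycan, had 6979 and 6618 in mdx/Ripk3mKO, 7100 and 8336 in mdx, and 6395 and 7268 in wt. The co-receptor Nrp2 was at 0.36 ± 0.12 and the testican Spock2 at 0.23 ± 0.11 in mdx/Ripk3mKO against mdx (adjusted p = 0.28 and 0.432).

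**Figure D5:**
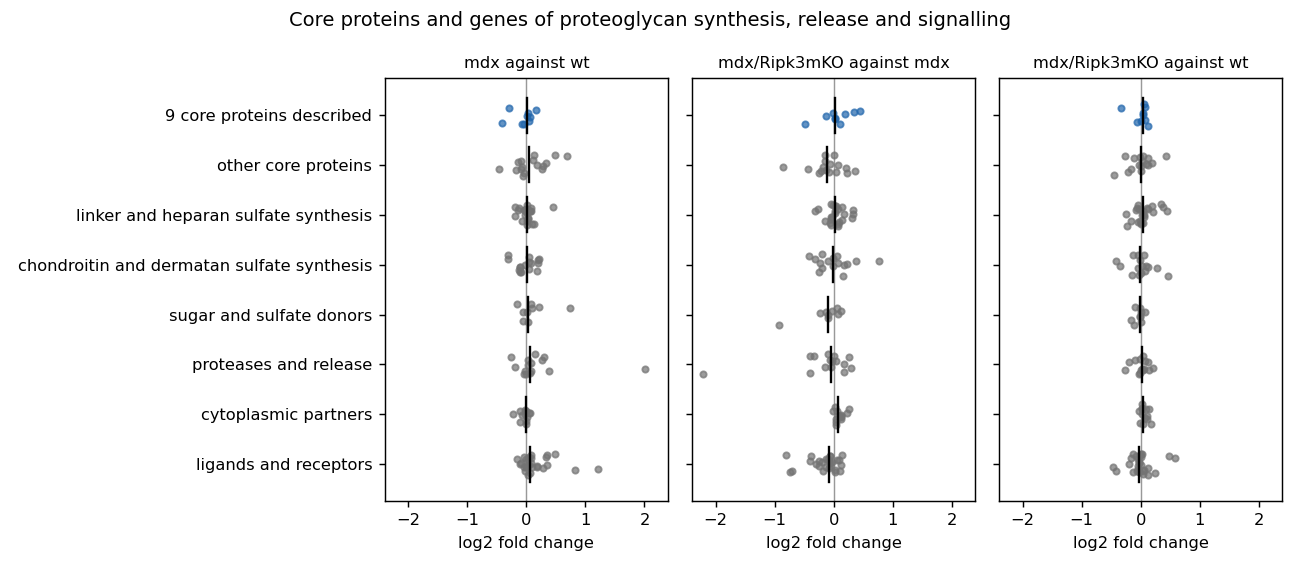
Log2 fold changes of the 9 core proteins described (blue) and of the tested genes in 7 lists (grey) in each comparison, with the median of each list as a black bar. List medians lie between -0.11 and 0.08, and the gene farthest to the left in mdx/Ripk3mKO against mdx is Adamts15 at -2.21 (2 and 4 scaled counts against 18 and 16).

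The sources used here do not say whether reads were counted by strand. In GENCODE M21 exons of Sdc3 share 415 bases with the antisense gene Gm26716 and 48 with Gm12970. Those of Gpc1 share 977 bases with Ankmy1 on the opposite strand. Counts of Sdc3 and Gpc1 may therefore hold reads of these neighbours. None of these neighbours has a value of its own here, and their part in the counts was not tested.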

How the data were processed

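RNA-seq values of 6 libraries were read from 1 deposited table. The authors' values are read counts that had been scaled between libraries and then rounded, and were treated as a score, since median-of-ratios size factors of the deposited columns differed by at most 0.00039; this reading rests on the values. Per the submitters' processing notes, Trimmomatic 0.36, STAR 2.6.1d, featureCounts 1.6.3, DESeq2 1.18.1 and mm10 were used, with no roles given. Both mdx columns carry 1 header and are numbered in column order. Each listed gene reaches at least 10 in 1 library.

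The 14077 genes reaching 10 in 2 or more libraries were tested with limma 3.58.1 in R 4.3.3 on log2(scaled count + 1), in 1 fit of 3 groups with 3 residual degrees of freedom, a mean-variance trend, robust fitting and Benjamini-Hochberg adjustment over all genes at 0.05. Fold changes on this scale understate low genes. The fit was tested on simulated data with the same setting of spread for all genes. The planted changes were larger than those of Sdc3 and Cspg4, so the simulation does not bear on these genes. Genes and lists were chosen with earlier results of these data known. All 9 genes are named, and in each list the 3 smallest p; genes named beyond these were chosen after their values were seen. Exon lengths and GC content are from GENCODE M21. For Sdc2, Sdc4 and Gpc6 the deposited coordinates differ from that annotation. Intervals cover the spread between libraries. Alternatives were pseudocounts of 0.5 and 5, other filters and scalings, variance models, groups fitted, GC correction and each library left out.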

Additional observations from a re-analysis of the deposited data

How the results depend on the processing

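No value of the 9 genes past the threshold changed sign in any alternative. With only the 2 groups compared in the fit, mdx against wt called 2 of the 9 genes (Sdc3 and Cspg4) and 103 of all genes, against 0 and 1 in the fit of all groups, while mdx/Ripk3mKO against mdx called 0 of the 9 and 2 of all genes, against 2 and 29. Between mdx/Ripk3mKO and mdx no trend and no robust fitting left 0 of the 9 and 1 gene, and the correction for GC content and length 0 of the 9 and 12 genes; a filter at 50 left 18 genes, and scaling to equal totals called 1 list gene, Tgfb2 (adjusted p = 0.0495 by limma). The cause was not tested. Leaving out single libraries gave 0 to 2 of the 9 genes and 0 to 103 of all in mdx against wt, 0 to 2 of the 9, 0 to 5 list genes and 1 to 278 of all in mdx/Ripk3mKO against mdx, and 0 to 1 of the 9 (Bgn, without mdx/Ripk3mKO library 2) and 0 to 20 of all in mdx/Ripk3mKO against wt. The 5 list genes, without mdx/Ripk3mKO library 1, were Ugp2, Adamts4, Mmp14, Mstn and Fgf6. A group left with 1 library was assumed to vary like the others. Replicate numbers were usable for mdx/Ripk3mKO and wt alone: same-numbered libraries did not deviate together (correlation -0.01 over 14077 genes), and the fit with the replicate block called 0 genes, as without it. No such fit was possible for the comparisons with mdx, whose columns both carry 1 number. Counting error limits low genes such as Bmp4 and Adamts15 most.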
